A study of Mus musculus with 2 samples.

Results

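The secretory lineage transcription factors described here are 10 genes, Atoh1, Spdef, Gfi1, Gfi1b, Neurog3, Neurod1, Creb3l1, Creb3l4, Bhlha15 and Xbp1, taken by symbol from a table of 35529 genes, and all 10 were found in it. RNA came from 2 groups of C57BL/6 wild-type mice. The control group was normal colon from animals left without azoxymethane (AOM), a colon carcinogen, and without dextran sodium sulfate (DSS), an agent that wounds the gut lining, and the other group was adenoma from the colon of animals given both. In each group the RNA of 6 individuals was pooled and sequenced as 1 library (named control pool and adenoma pool in the plots), so no spread between animals can be measured and no difference below has a replicate check or a p-value. The sources used here give no dose, time after treatment, age or sex.

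The colonic epithelium renews from crypt stem cells whose daughters become either absorptive or secretory. Notch signalling, acting through Hes1, holds Atoh1 down in absorptive daughters, while daughters that escape it keep Atoh1, the basic helix-loop-helix (bHLH) factor that opens the secretory programme. Downstream of Atoh1, Gfi1 and Spdef favour goblet and Paneth cells, Neurog3 and then Neurod1 lead to hormone-producing enteroendocrine cells, and Creb3l1, Creb3l4, Xbp1 and Bhlha15 equip mature secretory cells with endoplasmic reticulum (ER) and granules.

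Values are RPKM, which divide a gene's reads by its length and by the reads of the library and so can be compared between genes. Normal colon rested on 29548883 reads and adenoma on 33174626, totals recovered from the table as described under processing, and the members on 5 to 9549.5 reads. A fold is a ratio of RPKM, and the range in brackets after it is an exact (Clopper-Pearson) 95% interval that covers counting error only. Over all genes short transcripts were higher and long ones lower in adenoma, and RPKM summed to 629215 in normal colon and 828667 in adenoma. Values with the pools rescaled to equal sums, or adjusted for transcript length, are therefore given where they end a 2-fold difference or turn a direction. In whole tissue, fewer cells of a type and less RNA per cell cannot be told apart.

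All 10 factors had lower RPKM in adenoma, by amounts from 1.05-fold to 7.70-fold. The 2-fold line is a cut on the ratios and not a gap between them. The intervals of Gfi1 (1.63 to 2.85) and Gfi1b (0.429 to 6.28) crossed it. Creb3l1, Atoh1, Neurog3, Neurod1 and Gfi1 were more than 2-fold lower, and Spdef, Gfi1b, Bhlha15, Creb3l4 and Xbp1 were less than 2-fold lower. The counting interval left out equal levels for 7 factors and held them for 3, Gfi1b, Creb3l4 and Bhlha15. No such share was taken over all genes. With many reads, even the 1.05-fold difference of Xbp1 left out equal levels. Among the 16517 genes that reached 1 RPKM in at least 1 pool, 50.8% were lower by any amount and 18.1% by 2-fold or more in RPKM ratio. Of the 8 factors in this range Atoh1, Creb3l1, Gfi1 and Neurog3 were in the latter group, but Gfi1 and Neurog3 reached 1 RPKM in normal colon only, so being lower was partly fixed by the filter and their count is not read against that share.

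**Figure D1:**
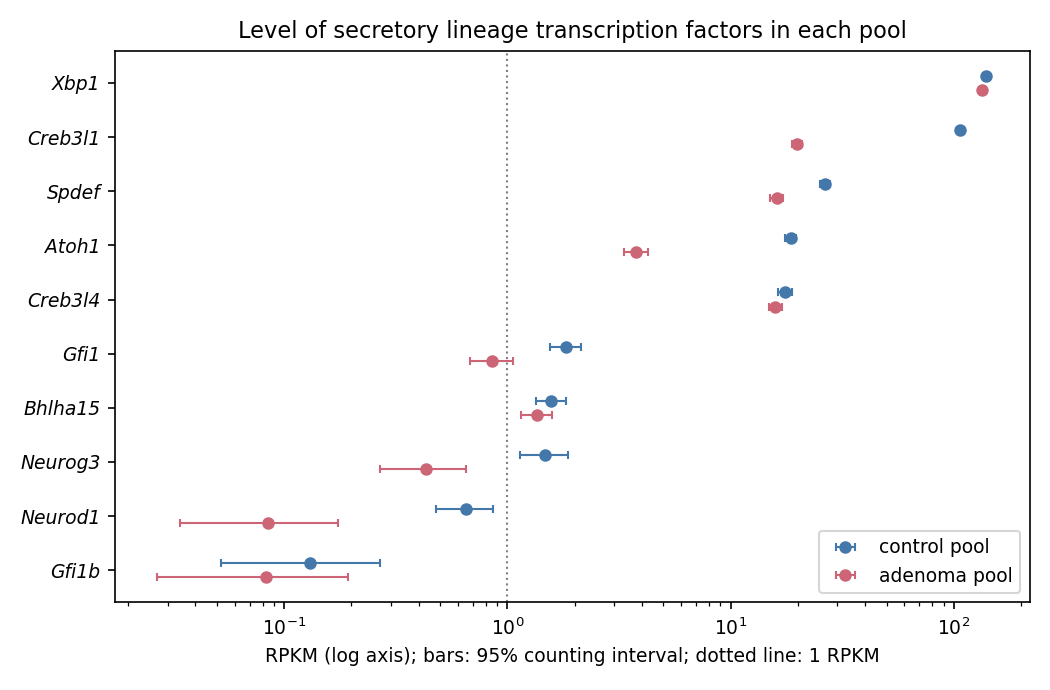
RPKM (log axis) of each of the 10 factors in normal colon (blue) and adenoma (red), 1 library each, with exact 95% counting intervals as bars and a dotted line at 1 RPKM. Each red point lies left of its blue point; the gap is wide for Creb3l1 (107 against 19.9) and Atoh1 (18.6 against 3.76) and nearly absent for Xbp1 (140 against 133).

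To compare the factors with all other genes, the change was also taken as log2((adenoma RPKM + 1)/(control RPKM + 1)) for every gene that reached 1 RPKM in at least 1 pool, and a value past 1 in size was called 2-fold. The added 1 makes changes of low genes look smaller than their ratios. On this scale 8 factors passed the filter, of which 2, Atoh1 and Creb3l1, were at least 2-fold lower and 0 at least 2-fold higher. The share of all 16517 genes past the filter was 11.0% lower and 14.0% higher. The median of the 8 was -0.65, beside -0.02 over all genes and -0.17 over mRNA genes. For Gfi1 and Neurog3, and for any gene named later that reached 1 RPKM in 1 pool only, the filter itself favours that direction, so these counts and medians describe the genes and support nothing. Neurod1 and Gfi1b were under 1 RPKM in both pools and enter neither the counts nor the median.

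Atoh1, the factor at the head of the secretory programme, was at 18.6 RPKM in normal colon and 3.76 in adenoma, from 1151 and 262 reads. It was 4.93-fold lower (4.31 to 5.66), with a log2 value of -2.04, and 0.957% of the genes past the filter had a value as low or lower. Atoh1 is a gene of 1 exon on chromosome 6 (64729125 to 64731245, plus strand; positions here and after are from GENCODE M21, build GRCm38), and no other annotated gene overlapped it.

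Gfi1, a zinc-finger repressor that acts below Atoh1 and keeps goblet and Paneth precursors from the endocrine fate, was at 1.83 RPKM in normal colon and 0.853 in adenoma. These values came from 155 and 81 reads, and the gene was 2.15-fold lower (1.63 to 2.85). Gfi1 lies on chromosome 5 (107716657 to 107726036, minus strand) and shares 101 exon bases with a transcript of the opposite strand, A430072P03Rik, which was listed at 0 in normal colon and 0.0799 RPKM in adenoma.

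Spdef, an ETS-family factor that drives the maturation of goblet and Paneth cells, was at 26.5 RPKM in normal colon and 16.1 in adenoma, from 1430 and 973 reads. It was 1.65-fold lower (1.52 to 1.79), a range that did not meet that of Atoh1. Spdef thus stood at 1.43 times the level of Atoh1 in normal colon and 4.27 times in adenoma. Its gene lies on chromosome 17 (27714352 to 27728955, minus strand).

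The endocrine factors were scarce in both pools. Neurog3, the bHLH factor that commits precursors to the enteroendocrine fate, was at 1.47 RPKM in normal colon and 0.431 in adenoma, from 67 and 22 reads, 3.42-fold lower (2.09 to 5.81). Neurod1, its bHLH target that completes endocrine differentiation, was at 0.651 and 0.0846 RPKM. With 48 reads in normal colon and 7 in adenoma, it was 7.70-fold lower (3.46 to 20.2), the highest ratio of the 10 factors and the one with the widest interval apart from Gfi1b. Among 6912 genes above 0 and under 1 RPKM in both pools, 26.6% were lower by 2-fold or more in RPKM ratio.

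Both endocrine genes overlap others, and no source used here says whether reads were counted by strand. Neurog3 (chromosome 10, 62133090 to 62134763, plus strand) shares 273 exon bases with Fam241b on the opposite strand, which was at 5.45 RPKM in normal colon and 8.09 in adenoma, higher where Neurog3 was lower. Neurod1 (chromosome 2, 79452521 to 79456751, minus strand) shares 201 exon bases with Cerkl on its own strand, at 0.0385 and 0.257 RPKM.

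The 4 factors of the ER and secretory apparatus split into 1 large difference and 3 small ones. Creb3l1, also called OASIS, is a membrane-bound basic leucine zipper (bZIP) factor released from the ER by proteolysis and needed for terminal goblet cell maturation. It was at 107 RPKM in normal colon and 19.9 in adenoma, from 7178 and 1495.5 reads, 5.39-fold lower (5.10 to 5.70). Its log2 value of -2.37 was the lowest of the 8 factors past the filter, and 0.484% of all genes past it were as low or lower. Creb3l1 (chromosome 2, 91982328 to 92024502, minus strand) and Atoh1 kept nearly the same proportion, with 5.76 times as much Creb3l1 as Atoh1 in normal colon and 5.27 times in adenoma.

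Creb3l4, a close relative of Creb3l1 that is likewise anchored in the ER, was at 17.5 RPKM in normal colon and 15.9 in adenoma, from 803 and 817.5 reads. The interval of its 1.10-fold difference (0.999 to 1.22) held equal levels. Normal colon therefore had 6.11 times as much Creb3l1 as Creb3l4, and adenoma 1.25 times. Creb3l4 lies on chromosome 3 (90237500 to 90243512, minus strand).

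Xbp1, the bZIP factor made active by Ire1 splicing in the unfolded protein response, was the most abundant factor in both pools, at 140 RPKM in normal colon and 133 in adenoma. From 8910 and 9549.5 reads it was 1.05-fold lower (1.02 to 1.08), and its log2 value of -0.07 lay close to the median of all genes. A gene's total does not tell the spliced, active form from the unspliced one. As the other abundant factors were lower, Xbp1 made up 44.3% of the summed RPKM of the 10 factors in normal colon and 69.5% in adenoma. Xbp1 lies on chromosome 11 (5520659 to 5525893, plus strand).

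Bhlha15, also called Mist1, a bHLH factor downstream of Xbp1 that enlarges the secretory apparatus, was low, at 1.57 RPKM in normal colon and 1.35 in adenoma. With 162 and 157 reads, its 1.16-fold difference (0.924 to 1.45) held equal levels. It lies on chromosome 5 (144190286 to 144194441, plus strand).

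Gfi1b, a paralog of Gfi1 known from red cell and platelet precursors and from tuft cells, was at 0.130 RPKM in normal colon and 0.0827 in adenoma. These are 7 and 5 reads, and the interval of the 1.57-fold difference (0.429 to 6.28) reached from higher to much lower levels, so no difference was detectable at this depth. Gfi1b lies on chromosome 2 (28609450 to 28621982, minus strand).

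The order of levels was nearly the same in both pools, running from Xbp1 through Creb3l1 and Spdef down to Neurog3, Neurod1 and Gfi1b. In normal colon Atoh1 came 4th and Creb3l4 5th, with counting intervals that overlapped, 17.5 to 19.7 and 16.3 to 18.8 RPKM. In adenoma Creb3l4 came 4th and Atoh1 5th, and these intervals were apart, at 14.8 to 17.0 and 3.32 to 4.25 RPKM. Gfi1, Bhlha15 and Neurog3 formed a group near 1.5 RPKM in normal colon, where the interval of Bhlha15 (1.34 to 1.83) overlapped those of both neighbours. In adenoma Spdef (15.1 to 17.1) and Creb3l4 also overlapped, and Bhlha15 (1.15 to 1.58) lay above Gfi1 (0.677 to 1.06).

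Changes in scale moved the sizes but no direction. Equal sums could not turn a factor that was already lower, since that scale only lowers adenoma values. With both pools rescaled to equal sums, which takes 0.40 from log2 values at high RPKM, Spdef passed 2-fold at -1.06, so that 3 of the 8 factors were at least 2-fold lower and 0 higher, beside 19.1% and 7.31% of all genes past the filter. Adjusted for transcript length, 4 were lower and 0 higher, Creb3l1 at -2.48, Atoh1 at -2.29, Neurog3 at -1.31 and Spdef at -1.01, beside 11.3% and 5.66% of the 15518 genes with a length. The adjustment takes the same amount from low genes, whose log2 values the added 1 RPKM shrinks. Neurog1, listed at 0 in both pools, thereby came to -0.44. Neurog3, a low gene at -0.79 as deposited, passed 2-fold on this scale by that subtraction. Xbp1, near-equal as deposited at -0.07, was at -0.46 at equal sums and -0.32 adjusted for length. By the length adjustment Creb3l4 went from -0.13 to -0.65 and Bhlha15, the longest of the 10 transcripts, from -0.13 to -0.02. All 8 were below 0 on each of these scales, beside 62.1% of genes after length adjustment. At equal sums the share of all genes below 0 was not counted, but their median was also below 0. Gfi1 and Neurog3 reached 1 RPKM in normal colon only, so the filter favoured their direction. The median of the 8 was -0.84 at equal sums (-0.34 over all genes) and -0.85 adjusted for length (-0.19 over all genes).

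**Figure D2:**
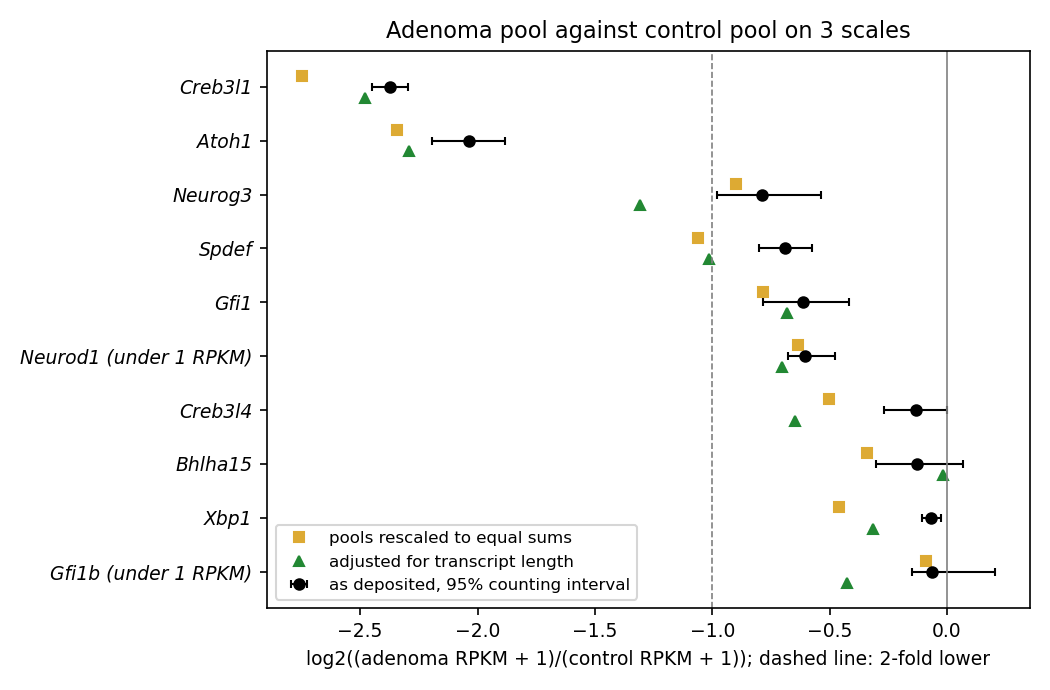
Log2((adenoma RPKM + 1)/(control RPKM + 1)) of each factor as deposited (black, with 95% counting interval), with the pools rescaled to equal sums (yellow) and adjusted for transcript length (green); the dashed line marks 2-fold lower. Creb3l1 and Atoh1 lie beyond the dashed line on all 3 scales, Spdef crosses it on 2 of them, and no point lies above 0.

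**Figure D3:**
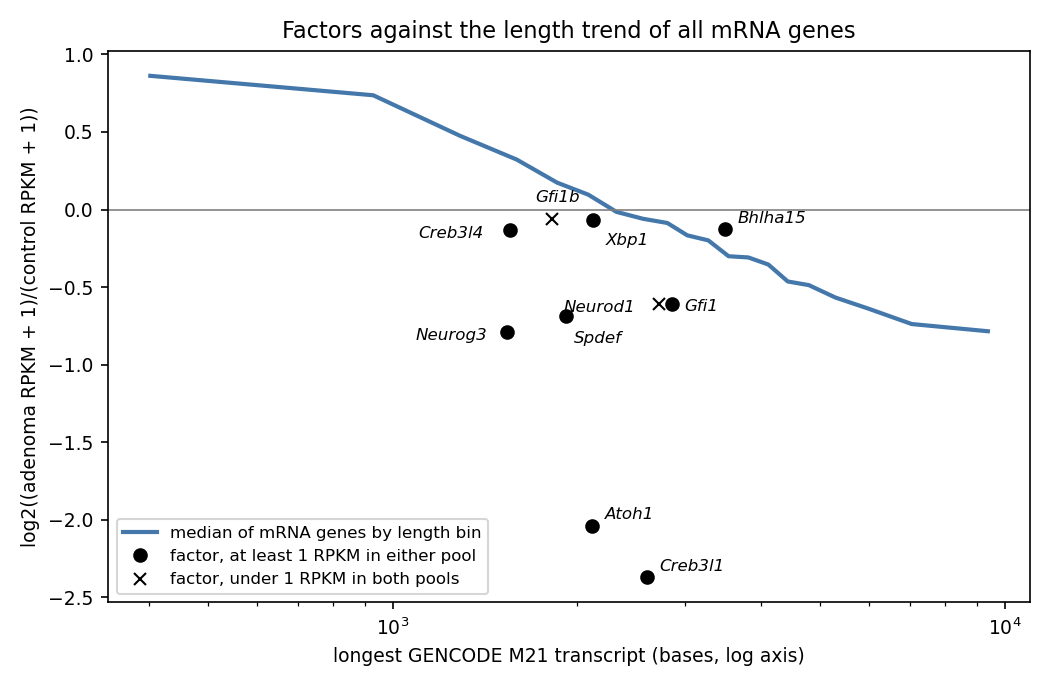
Log2((adenoma RPKM + 1)/(control RPKM + 1)) of each factor against its longest GENCODE transcript in bases (log axis), with the median of mRNA genes in 20 length bins as a blue line (from 0.86 in the shortest bin to -0.79 in the longest). Factors at least 1 RPKM in either pool are dots, the other 2 are crosses; Atoh1 and Creb3l1 lie far below the line, while Bhlha15 lies on the upper side of it.

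The bHLH factors of the set bind E-boxes (CANNTG), so the 250 bases before the RefSeq start (GRCm38.p6) of 3 bHLH factors with different changes, and of Xbp1 as the factor with nearly equal deposited levels, are printed here, 5′ to 3′ on the gene's strand, with E-boxes in capitals. Windows were found for 9 of the 10 factors.
Atoh1, chr6:64728875-64729124, plus strand: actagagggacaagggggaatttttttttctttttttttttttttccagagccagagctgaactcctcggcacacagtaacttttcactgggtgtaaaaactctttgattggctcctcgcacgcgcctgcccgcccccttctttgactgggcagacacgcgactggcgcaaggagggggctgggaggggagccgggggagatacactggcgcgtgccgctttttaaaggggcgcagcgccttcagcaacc
Neurog3, chr10:62132840-62133089, plus strand: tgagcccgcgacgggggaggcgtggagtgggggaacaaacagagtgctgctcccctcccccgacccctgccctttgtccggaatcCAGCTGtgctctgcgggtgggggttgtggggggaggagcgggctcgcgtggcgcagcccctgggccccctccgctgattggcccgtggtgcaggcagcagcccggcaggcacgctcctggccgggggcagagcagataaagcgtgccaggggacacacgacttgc
Bhlha15, chr5:144190036-144190285, plus strand: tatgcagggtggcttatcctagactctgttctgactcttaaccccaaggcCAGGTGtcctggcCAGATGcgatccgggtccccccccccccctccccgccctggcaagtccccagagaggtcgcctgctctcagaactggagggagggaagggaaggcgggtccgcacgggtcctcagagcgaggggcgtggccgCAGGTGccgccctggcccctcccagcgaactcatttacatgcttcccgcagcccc
Xbp1, chr11:5520391-5520640, plus strand: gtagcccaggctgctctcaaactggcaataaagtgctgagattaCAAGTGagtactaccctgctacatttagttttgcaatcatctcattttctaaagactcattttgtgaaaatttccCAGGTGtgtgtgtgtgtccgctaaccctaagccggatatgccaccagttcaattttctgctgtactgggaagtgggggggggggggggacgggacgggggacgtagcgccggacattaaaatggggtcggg
The Atoh1 window held 0 E-boxes, that of Neurog3 held 1, that of Bhlha15 held 3 and that of Xbp1 held 2, while 66.2% of 32851 RefSeq windows of the same length held at least 1. The RBPJ motif TGGGAA, searched on both strands and present in 21.6% of windows, occurred 2 times before Xbp1 and 0 times before Atoh1, Neurog3 and Bhlha15. The N-box CACNAG, bound by Hes factors and present in 36.7% of windows, occurred 1 time before Xbp1 and 0 times in the others shown. The bZIP core ACGTG, present in 16.6% of windows, occurred in none of the 4. These matches describe letters in a window and not binding.

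Genes of the Notch pathway, which acts above Atoh1, were lower in part, though not each listed gene itself acts above Atoh1. Of 12 listed genes 11 passed the filter, 3 were at least 2-fold lower (Dll1, Maml1 and Jag1), 0 higher, and the median was -0.78, or -0.26 adjusted for length, where Dll1 alone stayed past 2-fold. Dll1, the Notch ligand carried by early secretory cells, was at 4.34 RPKM in normal colon and 0.659 in adenoma, 6.58-fold lower (5.14 to 8.52), and remained at -1.56 after length adjustment. Hes1, the repressor of Atoh1 and the most abundant gene of the list, was at 27.8 and 26.0 RPKM, a 1.07-fold difference (0.984 to 1.16) that held equal levels as deposited. Its log2 value of -0.09 was -0.47 at equal sums and -0.64 adjusted for length, beside -2.34 and -2.29 for Atoh1. Maml1, a Notch coactivator, was 3.03-fold lower (2.63 to 3.50) and at -0.71 after length adjustment. Hey1, another Notch target, was at 0.890 and 1.67 RPKM, and the Fringe glycosyltransferase Lfng at 7.54 and 8.06, the latter higher as deposited and lower on both other scales.

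Other regulators of secretory fate went both ways. Past the filter were 11, of which 3 were lower by 2-fold or more and 2 higher; the median was -0.67 (-0.48 adjusted for length). Klf4, a factor of goblet cell differentiation, was at 133 RPKM in normal colon and 32.2 in adenoma, 4.14-fold lower (3.99 to 4.31). Elf3, an epithelial ETS factor and the most abundant of the list, was at 291 and 136 RPKM, and the corepressor Cbfa2t3 was 4.13-fold lower (3.50 to 4.90), or -0.62 on the log2 scale after length adjustment. In the other direction Hes6, an antagonist of Hes1 found in secretory precursors, was at 49.6 and 246 RPKM, 4.97-fold higher (4.81 to 5.15), and Sox4 at 6.00 and 24.0, 3.99-fold higher (3.73 to 4.27). Both stayed above 1 on the log2 scale at equal sums and after length adjustment.

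Transcription factors that follow Neurog3 in the endocrine lineage were as scarce as Neurog3 itself. Of 12 listed genes 11 were under 1 RPKM in both pools. All 11 had lower RPKM in adenoma, and 9 were lower by 2-fold or more in RPKM ratio. Of the 6912 genes in that low range, 54.0% were lower by any amount and 26.6% by 2-fold or more. The interval left out equal levels for 9 of the 11, a share that was not taken over all genes. Some examples, chosen after their values were seen, are the zinc-finger factor Insm1, with 76 reads in normal colon and 12 in adenoma, Nkx2-2 with 37 and 6, Lmx1a with 43 and 4, and Rfx6 with 30 and 2. The exception was Isl1, a LIM-homeodomain factor, at 0.884 RPKM in normal colon and 3.09 in adenoma, 3.50-fold higher (2.66 to 4.65). Its log2 value of 1.12 became 0.83 at equal sums and 0.996 adjusted for length, so it was within 2-fold on both.

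E proteins, with which bHLH factors pair to bind DNA, and Id proteins, which sequester E proteins, were mostly higher. Among 7 genes the median was 0.76 (0.73 adjusted for length and 0.38 at equal sums), and 2, Id2 and Id3, were 2-fold higher as deposited. Id3 was at 77.6 RPKM in normal colon and 205 in adenoma, and its log2 value of 1.39 became 0.99 at equal sums and 0.73 adjusted for length. Id2 was at 20.1 and 49.9 RPKM, and its 1.27 became 0.88 and 0.96. Adjusted for length the 2 genes past 2-fold were instead the E proteins Tcf4, at 1.54, and Tcf12, at 1.08, named for that reason. Id4 went the other way, at 5.41 and 2.26 RPKM, and Id1, at 136 and 179, was higher as deposited, level at equal sums (0.00) and lower after length adjustment (-0.34). Among 7 genes of the corepressor complexes recruited by Gfi1 the median was 0.45, but 0.07 at equal sums, with Rcor1 4.02-fold lower (3.73 to 4.35) and its paralog Rcor2 5.79-fold higher (3.40 to 10.5), at 0.269 and 1.56 RPKM, whose log2 value of 1.01 became 0.78 at equal sums and 0.93 adjusted for length. Hdac1 was at 21.8 and 38.1 RPKM and the most abundant of them, Ehmt2, at 47.1 and 44.0, with a log2 value of -0.10 that became 0.07 after length adjustment.

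Stress sensors and activating proteases of the unfolded protein response were lower as deposited. Most ER folding and secretory pathway genes were within 2-fold. Of 9 stress sensors and activating proteases 3 were at least 2-fold lower, 0 higher, all 9 were below 0, and the median was -0.51 (-0.47 adjusted for length). Ern2, the form of Ire1 found in goblet cells, was at 24.2 RPKM in normal colon and 7.94 in adenoma, 3.05-fold lower (2.81 to 3.32), and at -1.53 on the log2 scale after length adjustment. Ern1, the general form, was at 7.73 and 2.36 RPKM, and with Atf6, the other gene past 2-fold as deposited, it was within 2-fold after length adjustment, at -0.82 and -0.45. Atf4, the most abundant of the list, was at 57.6 and 53.6 RPKM, and Ddit3, a factor of prolonged ER stress, was 1.17-fold lower (1.01 to 1.37) as deposited and past 2-fold, at -1.09, after length adjustment. Mbtps1, a protease that releases ER-bound factors, was 1.45-fold lower (1.40 to 1.49) as deposited. It was chosen as the 1 gene of the list above 0 after length adjustment, at 0.03. Of 25 ER folding and secretory pathway genes past the filter 22 were within 2-fold, 2 lower and 1 higher, with a median of -0.25 (-0.22 adjusted for length). The COPII coat gene Sec24d was 2.50-fold lower (2.32 to 2.70) and the chaperone Hyou1 2.31-fold lower (2.19 to 2.44), or -1.07 and -0.81 after length adjustment, whereas the translocon subunit Sec61b, a short transcript, was 2.51-fold higher (2.42 to 2.59) and at 0.37 on the log2 scale after length adjustment. Manf, a secreted ER stress protein, was at 52.5 and 92.6 RPKM.

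Relatives of the factors were mostly scarce. Of 10 related genes, 3 passed the filter and 0 were past 2-fold. Creb3l2 was at 4.94 RPKM in normal colon and 2.26 in adenoma, Creb3 at 35.5 and 40.7, higher as deposited and lower on both other scales, and the bHLH gene Atoh8 at 2.47 and 3.96. The other 7, among them Neurog1, Neurog2, Neurod2 and Atoh7, were under 1 RPKM in both pools.

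The products of the cells these factors specify were given beside them. Among 14 goblet cell products, 12 were lower by 2-fold or more and 1 higher, the median being -1.78 (-2.39 adjusted for length). Clca3, a secreted goblet protein, was 35.5-fold lower (34.5 to 36.5), Fcgbp 27.3-fold (26.3 to 28.4) and Zg16, the most abundant, 13.8-fold (13.5 to 14.1), all larger ratios than that of any goblet factor. The mucin Muc2, chosen after its value was seen, was 3.46-fold lower (3.37 to 3.56), a ratio between those of Spdef and Atoh1. Spink4 was 2.79-fold higher (2.74 to 2.84), but within 2-fold after length adjustment, at 0.44. Agr2, a disulfide isomerase, was 1.23-fold lower (1.21 to 1.25), or -1.21 after length adjustment. Of 15 enteroendocrine products past the filter 7 were at least 2-fold lower and 1 higher, with a median of -0.81 (-1.46 adjusted for length). Chgb was 7.30-fold lower (6.70 to 7.96) and Chga 5.76-fold (5.17 to 6.43), while Insl5 was at 170 and 113 RPKM (a log2 value of -0.58, or -1.53 adjusted for length), Tac1 at 9.39 and 17.7, and Nts at 0.115 and 2.71.

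Paneth cells also arise through Atoh1, Gfi1 and Spdef, and most of their products on the list were higher in adenoma. Of 9 listed genes 8 passed the filter and were above 2-fold, the median being 6.16 (5.12 adjusted for length). The 4 defensins and Mmp7 reached 1 RPKM in adenoma only, so the filter fixed their direction, and the other gene, Ang5, was under it and lower, at 0.456 and 0.158 RPKM. Lyz1 was at 37.8 RPKM in normal colon and 337 in adenoma, Pla2g2a at 11.0 and 221, and Mmp7 at 0.116 and 328. The alpha-defensins Defa24, Defa2, Defa3 and Defa17 were listed at 0 in normal colon and at 237, 177, 75.2 and 65.9 RPKM in adenoma, where near-identical copies make the single values uncertain.

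**Figure D4:**
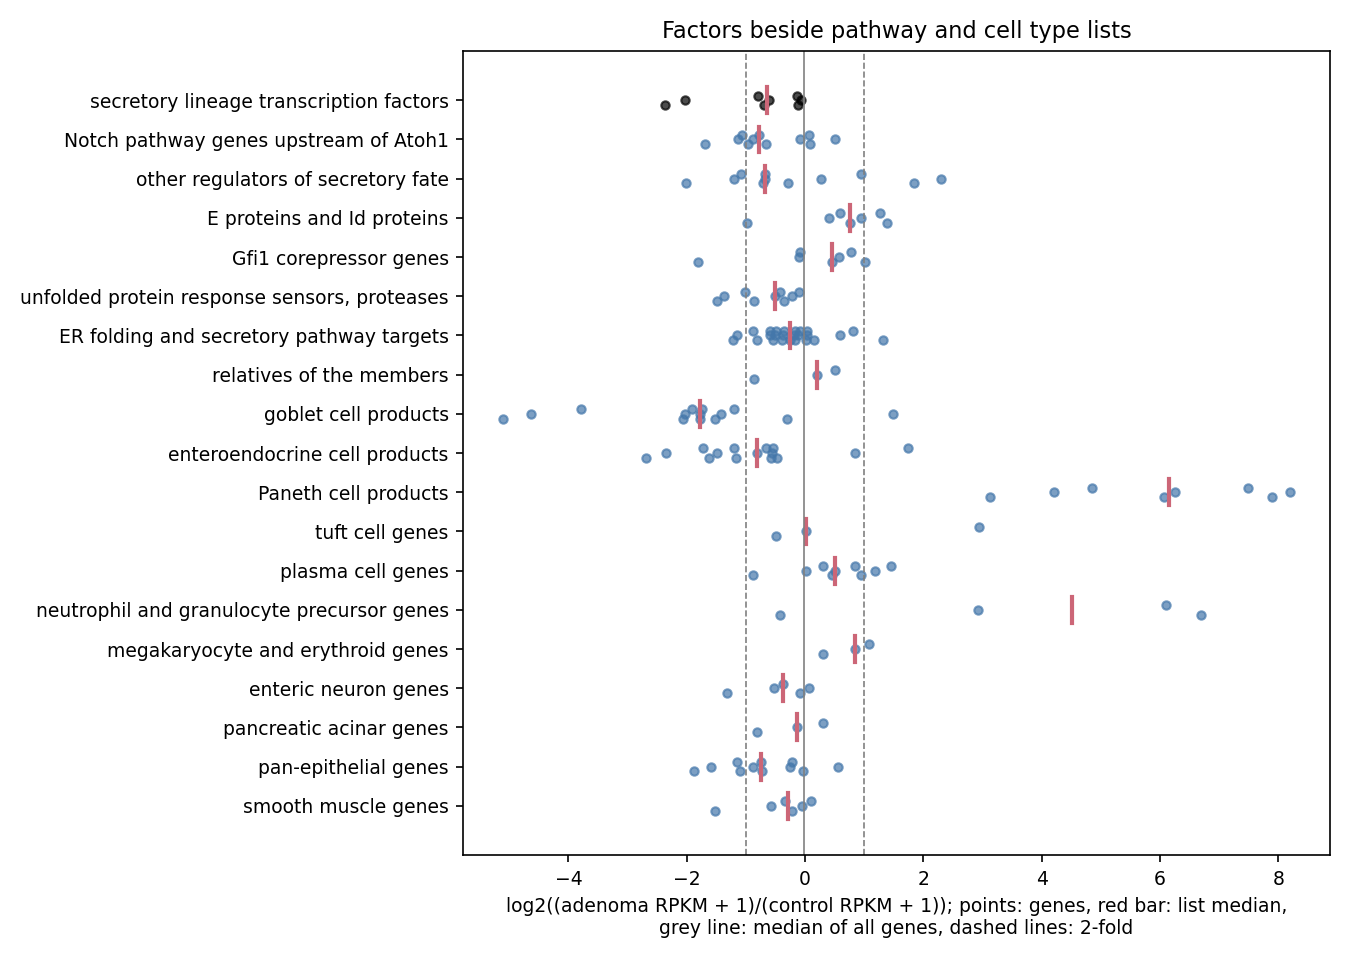
Log2((adenoma RPKM + 1)/(control RPKM + 1)) of each gene with at least 1 RPKM in either pool (points) in the factor set and in the gene lists with 3 or more such genes, with list medians as red bars, the median of all genes as a grey line and 2-fold as dashed lines. The factors (black) reach from -2.37 to -0.07, goblet products have a median of -1.78, and Paneth products lie at 3.12 or above.

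Some of the factors are also made outside the secretory epithelium, so markers of those cells are given here. Their part in the differences was not tested. Plasma cells need Xbp1 and express Bhlha15: of 9 plasma cell genes past the filter 2 were 2-fold or more higher and 0 lower, the median was 0.51 (0.31 adjusted for length, 0.16 at equal sums) and the summed RPKM went from 5221 to 7602. Jchain was 2.27-fold higher (2.24 to 2.30) and Mzb1 2.82-fold (2.56 to 3.12), but Jchain was at 0.78 on the log2 scale at equal sums and Mzb1 at 0.54 after length adjustment. Igkc was at 4655 and 6408 RPKM (higher as deposited, lower after length adjustment), Irf4 at 2.09 and 0.682, and Derl3 at 4.23 and 4.29 (lower on both other scales). The plasma cell factor Prdm1, under the filter, was at 0.612 and 0.346 RPKM, 1.77-fold lower (1.26 to 2.50). Granulocyte precursors express Gfi1: of 10 listed genes 4 passed the filter, with S100a9 at 0.693 and 175 RPKM, S100a8 at 0.777 and 120, Retnlg 22.5-fold higher (11.2 to 52.8) and Ly6g at 113 and 83.2, and the summed RPKM went from 115 to 390. Of these, S100a8, S100a9 and Retnlg reached 1 RPKM in adenoma only, and Ly6g made up most of the sum in normal colon. Under the filter, Csf3r was at 0.394 and 0.950 RPKM and Cxcr2 at 0.0389 and 0.0307. The precursor genes Mpo, Elane and Ctsg were listed at 0 in normal colon and at 0.107, 0.0328 and 0.0602 RPKM in adenoma, and Prtn3 was at 0.0348 and 0.0930.

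Gfi1b is shared with tuft cells and with red cell and platelet precursors. Of 10 tuft cell genes 3 passed the filter, with a median of 0.02 (-0.32 at equal sums, -0.25 adjusted for length). Avil was at 1.73 and 19.9 RPKM and Ptgs1 at 8.53 and 5.78. Under the filter, 6 were above 0 in both pools, and 5 of these had RPKM ratios lower by 2-fold or more. The tuft cell factor Pou2f3 was at 0.362 RPKM in normal colon and 0.143 in adenoma, from 27 and 12 reads. The channel Trpm5, chosen after its value was seen, was at 0.548 and 0.0413. Sh2d6 went the other way, at 0.596 and 0.676 RPKM, but was lower on both other scales. Of 10 megakaryocyte and erythroid genes 3 passed the filter with a median of 0.85 (0.60 at equal sums, 0.30 adjusted for length), Pf4 being at 31.0 and 38.2 RPKM (lower on both other scales), Alas2 at 0.616 and 1.90 and Ppbp at 0.313 and 1.79 (a log2 value of 1.09, or 0.84 at equal sums and 0.30 adjusted for length), and Gata1, a defining factor of these cells, was listed at 0 in both pools. Among pancreatic acinar genes, which mark another tissue that uses Bhlha15, Ptf1a, Cpa1 and Ctrb1 were listed at 0 in both pools, while Cela1, which was at 321 and 291 RPKM, Cela2a, at 1.48 and 0.413, and Clps, at 30.1 and 37.5 and lower on both other scales, passed the filter. Pnlip, Prss2 and Cel were listed at 0 in normal colon and at 0.375, 0.310 and 0.111 RPKM in adenoma.

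General markers of epithelium and muscle are also given. They do not measure the content of the pools, since fewer cells and less RNA per cell cannot be told apart. Of 11 pan-epithelial genes 4 were lower by 2-fold or more and 0 higher, with a median of -0.75 (-1.10 adjusted for length) and a summed RPKM of 10139 in normal colon and 6644 in adenoma. Cdx2 was 4.05-fold lower (3.68 to 4.47) and Cdh1 3.05-fold (2.99 to 3.11), Krt8 was at 4237 and 2514 RPKM, Cldn7 at 439 and 428, and Krt18 at 327 and 483, the last higher as deposited and at -0.01 after length adjustment. Epcam, chosen after its value was seen, was at 752 and 646 RPKM, 1.16-fold lower (1.15 to 1.18). Of 6 smooth muscle genes 1, Myh11, was at least 2-fold lower (2.92-fold, 2.86 to 2.98), and the median was -0.29 (-0.63 adjusted for length), with Acta2 at 440 and 295 RPKM, Cnn1 at 202 and 195 and Tagln at 558 and 597, the last lower on both other scales. Enteric neurons, which can express some of the endocrine genes, had 5 of 7 genes past the filter and a median of -0.37 (-0.81 adjusted for length), with Snap25 4.80-fold lower (3.98 to 5.83; -0.99 on the log2 scale after length adjustment), Prph at 5.21 and 3.29 RPKM, Uchl1 at 7.46 and 6.96 and Ret at 1.11 and 1.21 (lower at equal sums).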

How the data were processed

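The authors deposited 1 table of RPKM, with 1 column per pool, per the file headers. The submitters' processing notes name GRCh37, a human build, while the symbols are those of mouse, and no aligner, counter or annotation is given in the sources used here. Both a Proton sequencer and Illumina library protocols appear in the labels. The table itself holds no read counts.

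Library totals were recovered from microRNA and small nucleolar RNA genes, on which single reads share 1 product of RPKM and RefSeq length. With these totals 70.9% (normal colon) and 72.0% (adenoma) of such genes above 0 held a whole number of reads, within 0.01. For each member, the reads are those at the length, nearest an annotated transcript, where both pools held multiples of 0.5 reads within 0.0005. This length was found for all 10 members, and for 3 of them (Creb3l1, Creb3l4, Xbp1) the reads in adenoma ended in 0.5. Of the 200 list genes above 0, 118 were treated so, and for 82 the longest GENCODE M21 transcript was used, which makes their intervals approximate.

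The pseudocount was 1 RPKM, the filter 1 RPKM in either pool and the threshold 2-fold. The length adjustment subtracted the median of mRNA genes over 20 bins of transcript length and added back their overall median. With 1 library per group no test was possible. The log2 values, the counting intervals and the recovery of reads were tested on simulated counts, with library totals and the true length given. The length adjustment, the rescaling and the recovery of library totals were not tested in this way. Genes named are all members and, per list, the most abundant gene, the 2 lowest, the 2 highest past the filter and those listed at 0 in 1 pool with at least 1 RPKM in the other. Other genes named were chosen after their values were seen, and 1 listed gene is not reported here. The members and lists were chosen with earlier results of these data known. Analyses used Python 3.11.15, pandas 2.3.3 and SciPy 1.17.1.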

Additional observations from a re-analysis of the deposited data

How the results depend on the processing

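No factor changed direction under any alternative run. The runs were pseudocounts of 0.1 and 5 RPKM, no filter and a filter at 5 RPKM. Further runs were scaling to equal sums, by the median ratio, the upper quartile or a trimmed mean of log ratios, and subtraction of the length trend. A pseudocount or a filter cannot change a direction. Scaling to equal sums or by the upper quartile lowered adenoma values, so neither could turn a factor that was already lower. The median ratio and the trimmed mean could, but shifted log2 values by only 0.03. Atoh1 and Creb3l1 stayed at least 2-fold lower in all 9 alternative runs, and the count of factors at least 2-fold higher was 0 throughout. The count at least 2-fold lower went from 2 to 4 with a pseudocount of 0.1 RPKM and to 4 with the length trend subtracted, the latter beside 11.3% of genes. At a 1.5-fold threshold 5 factors were lower. The shares of all genes at that threshold and at 0.1 RPKM were not counted. Both settings added Gfi1 and Neurog3, which reached 1 RPKM in normal colon only. The median of -0.65 became -0.87 with a pseudocount of 0.1 RPKM, -0.24 with 5 RPKM, -0.84 at equal sums and -0.85 with the length trend subtracted; the added pseudocount shrinks low values by construction. Counting error limits Gfi1b and Neurod1, with 5 and 7 reads in adenoma, and the single pooled library per group limits everything. No paired analysis was possible because each group holds 1 library.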
